A study of Mus musculus with 11 samples.

Results

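A list of 39 genes for transcription factors that build or run dendritic and myeloid cells was followed in dendritic cells from mouse spleen, with and without exposure to a B cell lymphoma. The list was drawn up by name, and each gene was read from a probeset naming no other gene. Where there were several, the probeset was chosen by its mean log2 level, the highest across the 11 arrays, with no use of the groups. Of the 39 listed genes 37 were measured, among 22180 genes in all. The probeset of Irf5 names several genes, so Irf5 was not used here, and Nfkb1 was not analysed here.

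Cells carrying CD11c and MHC class II were sorted from spleen to a stated purity above 95%. The naive group held 6 arrays, from C57BL/6 mice labelled naive. The exposed group held 5 arrays from C57BL/6 mice that had received Eµ-Myc cells, a B cell lymphoma in which an immunoglobulin enhancer drives a Myc transgene, and whose splenic lymphocytes were on average 10 to 36% tumour. The study was built around the factor C/EBPβ, and its CD11c-Cre mice with and without floxed C/EBPβ were not analysed here. The labels do not say how many mice gave each array, so every p-value measures only the spread between these arrays.

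Dendritic cells are sorted into kinds by small sets of factors. IRF8 with BATF3 and ID2 makes type 1 conventional cells, which present antigen to CD8 T cells. IRF4, RUNX3 and Notch signalling shape type 2 cells, and E2-2 (the product of Tcf4), SPIB and BCL11A make plasmacytoid cells, while ZBTB46 marks the conventional lineage. C/EBP proteins and MAF are better known from monocytes, granulocytes and macrophages, and the NF-κB proteins carry the maturation signal.

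Values are log2 expression, so a difference of 1 is a doubling. The mark for a dim gene was 5.605, the 95th percentile of 1105 olfactory receptor genes, and all 37 factors averaged above it, with Cebpe closest at 5.66. Array medians lay between 5.53 and 5.61. The sorted cells carried both conventional programmes on every array: the mean of 11 type 1 markers lay between 10.64 and 11.07 and that of 12 type 2 markers between 9.07 and 9.43. The type 2 marker Clec10a was dim (5.04 in naive and 5.31 in exposed cells). Of 10 neutrophil genes 7 averaged under the mark, with S100a8 at 3.23 and 3.33. Csf3r, the receptor gene for granulocyte colony-stimulating factor, was well above it at 8.03 in naive and 8.38 in exposed cells, with every exposed array above every naive one (0.36, limma adjusted p = 0.0589, and 0.0401 with number sets blocked). Of 14 macrophage genes 13 were higher in exposed cells, where 11874 of all 22180 genes were higher, and 1, Marco, passed the test. Their mean lay between 7.62 and 8.74 on naive and between 8.22 and 10.32 on exposed arrays. Exposed arrays 1 and 2 lay above the naive range, with array 1 the highest, and exposed arrays 3, 4 and 6 lay inside it. Arrays numbered 1 to 3 in their titles also stood apart from those numbered 4 to 6, which no label explains. Results are given within each of these number sets where they matter. The split was first seen in these same arrays, so p-values with number sets blocked may be too small and are descriptive.

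Among the factors named above as defining dendritic cell types, Bcl11a alone passed the test over all 11 arrays. Missing the threshold does not show that the others were unchanged. Runx3 (-0.36) and Spib (0.37) passed with number sets blocked, a split picked from these same arrays. Irf8 (0.17) lay above every naive array on 4 of 5 exposed arrays. Irf4, Batf3, Id2, Tcf4 and Zbtb46 passed in neither fit. Mef2c, Satb1 and Bcl11a fell and Batf rose, by 0.24 to 0.39 on the log2 scale (limma, called at a p of 0.05 after Benjamini-Hochberg adjustment across 22180 genes). That is 4 of 37 measured factors, where 1.42% of all genes passed, 0.879% higher and 0.546% lower. Among the 12335 genes with a mean at or above the lowest of the factors, 2.45% passed. The list was written with earlier results of these data known, so the share is a description only. At an unadjusted p under 0.05 there were 13 factors of 37, against 12.2% of all genes and 17.4% of those 12335. The median difference over the 37 was 0.01, as it was over all genes, and 20 were higher and 17 lower in exposed cells. Their median absolute difference was 0.13, against 0.07 over all genes. The 2 groups of arrays were separate for the same 4 factors, 1 higher and 3 lower, where 2.29% of all genes were separate, 1.42% higher and 0.875% lower. Of the 12335 genes at the factors' levels 284 were separate higher and 176 lower. Blocking on the number set, 2 factors passed higher and 5 lower (Spib, Runx3 and Irf2 joined the 4), against 2.78% of all genes, 1.65% higher and 1.14% lower. Of the 12335 genes 345 then passed higher and 246 lower.

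**Figure D1:**
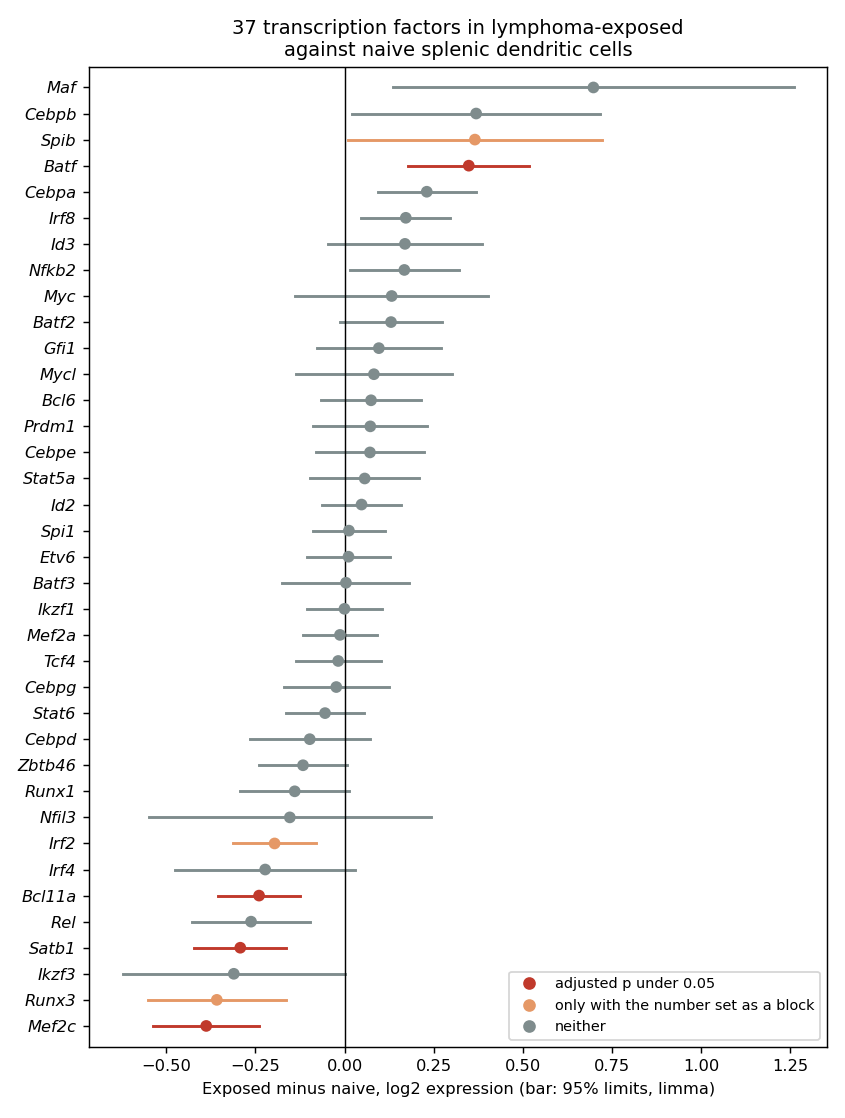
Difference in log2 expression, exposed minus naive, of each of the 37 measured factors (points) with limma's 95% limits (bars). The points run from Mef2c at -0.39 to Maf at 0.70, and the widest limits belong to Maf.

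Mef2c, Satb1 and Bcl11a share a place in lymphoid development. MEF2C is a MADS-box factor of B cells, myeloid progenitors and plasmacytoid cells, SATB1 organises chromatin loops and is best known from T cells, and BCL11A is a zinc finger repressor required for B cells and plasmacytoid dendritic cells.

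Mef2c (probeset 17288917) was measured at 9.52, 9.43, 9.54, 9.24, 9.36 and 9.53 on the 6 naive arrays and at 8.87, 9.04, 9.07, 9.06 and 9.20 on the exposed ones. Every exposed array lay below every naive array. The gene fell 1.31-fold, from 9.44 ± 0.12 (SD, n = 6) to 9.05 ± 0.12 (SD, n = 5), a difference of -0.39 ± 0.07 (SE; limma adjusted p = 0.0174). Its other probeset, at a mean of 7.95, gave -0.33 (adjusted p = 0.0634 over all 23521 probesets), with 4 of 5 exposed arrays below all naive ones.

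Satb1 (probeset 17345926) was measured at 8.45, 8.51, 8.50, 8.25, 8.47 and 8.27 on naive and at 8.11, 8.08, 8.10, 8.12 and 8.18 on exposed arrays. The exposed values were tightly bunched (SD 0.04) below naive arrays 4 and 6, the lowest of their group. The difference was -0.29 ± 0.06 (SE; limma adjusted p = 0.0300), a 1.22-fold fall.

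Bcl11a (probeset 17247852) was measured at 10.58, 10.60, 10.46, 10.51, 10.55 and 10.66 on naive and at 10.20, 10.44, 10.24, 10.34 and 10.39 on exposed arrays. The groups were separate by a narrow step between naive array 3 and exposed array 2. The difference was -0.24 ± 0.05 (SE; limma adjusted p = 0.0452), a 1.18-fold fall. Its dim second probeset differed by -0.13 (limma adjusted p = 0.659 across 23521 probesets), and averaging the pair did not pass (-0.18, adjusted p = 0.171).

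All 3 falls were present in both number sets. Arrays 1 to 3 and 4 to 6 gave -0.50 and -0.25 for Mef2c, -0.39 and -0.18 for Satb1, and -0.25 and -0.21 for Bcl11a, and with number sets blocked all 3 passed (adjusted p = 0.0122, 0.0163 and 0.0314). B cells also use Mef2c and Bcl11a. The mean of 13 B cell genes lay between 7.04 and 7.30 on naive and between 6.98 and 7.32 on exposed arrays; Cd22 alone of them passed, at -0.54 (limma adjusted p = 0.0238), and Cd79a and Pax5 differed by 0.36 and 0.23 without passing. Blk and Cr2 differed by -0.35 and -0.34 and Cd79b by 0.29, also without passing. Of the 13 genes 8 were higher and 5 lower in exposed cells, so their mean may not follow the share of B cells. With that mean as a covariate the 3 differences were -0.40, -0.29 and -0.25, all past the threshold, which does not settle what B cells contributed. With the macrophage mean as a covariate they were -0.30, -0.29 and -0.22, and none passed (adjusted p = 0.0761, 0.0946 and 0.154). Mef2c kept its call without any single array except exposed array 2 (adjusted p = 0.0517). Satb1 lost it without naive arrays 1, 2, 3 or 5 or exposed arrays 2, 3 or 4 (at most 0.0878, without exposed array 2), and Bcl11a without any array except exposed array 6 (at most 0.112, without exposed array 3).

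**Figure D2:**
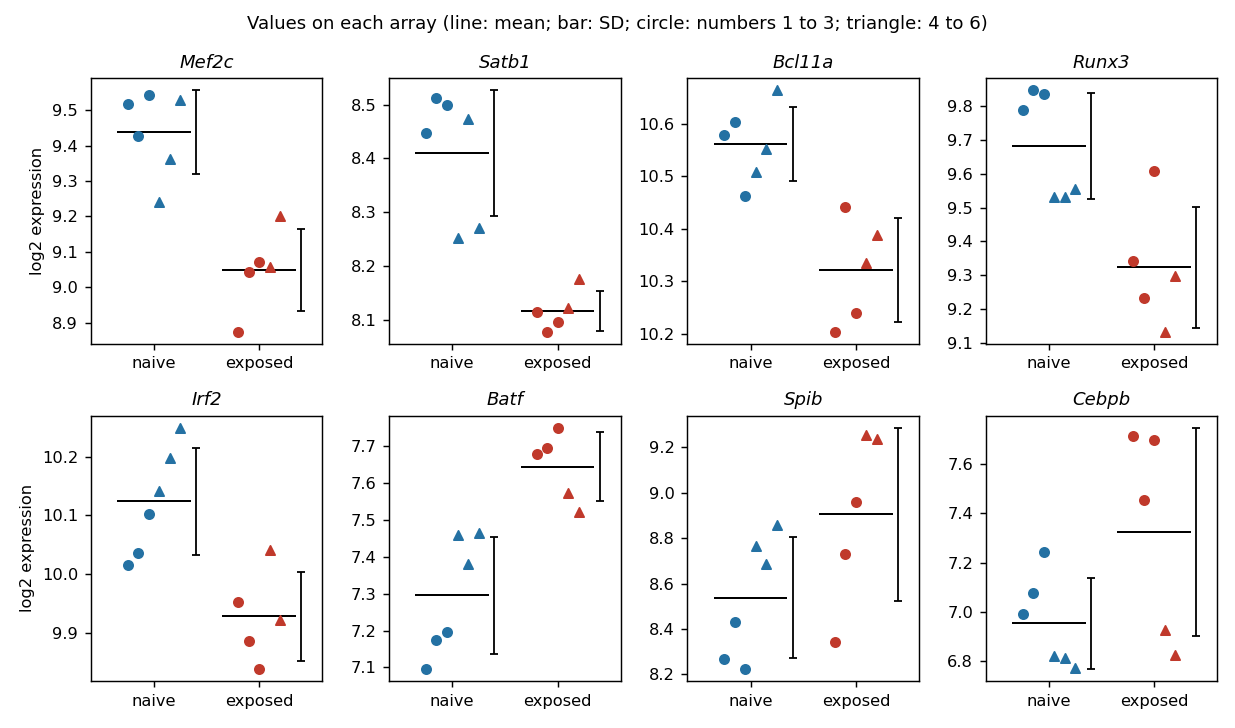
log2 expression of 8 factors on each array, naive (blue) and exposed (red), with group means (lines) and SDs (bars); circles are arrays numbered 1 to 3 and triangles 4 to 6. The groups do not overlap for Mef2c, Satb1, Bcl11a and Batf, and the triangles of Cebpb sit together at 6.77 to 6.93 in both groups.

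The promoters of the 3 falling genes are shown because the genes moved in the same direction. Each line holds the 250 bases before the RefSeq start (GRCm38.p6), 5′ to 3′ on the gene's strand, with motif matches in capitals. For genes with several starts the most upstream one was taken (of 3 for Mef2c and 5 for Satb1).

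Mef2c, chr13:83503784-83504033, plus strand: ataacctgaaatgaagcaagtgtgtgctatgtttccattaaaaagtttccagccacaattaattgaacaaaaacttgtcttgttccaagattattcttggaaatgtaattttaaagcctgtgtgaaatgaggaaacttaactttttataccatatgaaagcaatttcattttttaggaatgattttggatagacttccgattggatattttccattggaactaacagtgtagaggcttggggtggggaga

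Satb1, chr17:51833291-51833540, minus strand: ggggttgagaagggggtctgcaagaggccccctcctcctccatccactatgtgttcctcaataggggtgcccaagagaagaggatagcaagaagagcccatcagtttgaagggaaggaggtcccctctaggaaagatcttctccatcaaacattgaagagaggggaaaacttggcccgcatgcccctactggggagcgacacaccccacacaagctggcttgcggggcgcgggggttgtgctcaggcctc

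Bcl11a, chr11:24080445-24080694, plus strand: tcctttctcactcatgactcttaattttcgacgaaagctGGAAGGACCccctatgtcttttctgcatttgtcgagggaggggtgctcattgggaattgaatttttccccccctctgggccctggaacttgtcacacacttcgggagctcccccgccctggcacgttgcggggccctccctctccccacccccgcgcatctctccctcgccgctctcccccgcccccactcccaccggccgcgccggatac

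The 3 windows differ in composition, with 33.6% G and C for Mef2c, 58.0% for Satb1 and 62.0% for Bcl11a, where the median of all 32851 windows of this length was 52.4%. Both strands were searched for GGNNNTTCC (NF-κB), TTGCNNAA (C/EBP), GAAANNGAA (interferon response element), CACGTG (the E-box of Myc) and GAGGAAGT (PU.1); the NF-κB and PU.1 letters can overlap. The capitals in the Bcl11a window, at bases -211 to -203 from the start, are the only match in the 3 windows shown, to the NF-κB letters on the other strand. Another window of Satb1, not shown, also held the NF-κB letters. Those letters were in 15.7% of all windows, the C/EBP letters in 9.56%, the interferon letters in 7.13%, the E-box in 6.02% and the PU.1 letters in 2.44%. Of the 37 factors 29 had windows in the table, 44 in all, and 10 of these held the NF-κB letters, among them all 3 windows of Nfkb2. A match describes letters and not a bound site.

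The RUNX genes pointed the same way as these 3. RUNX3 binds DNA with CBFβ, acts downstream of TGF-β and is needed for the Esam-positive type 2 cells of the spleen. Runx3 was measured at 9.79, 9.85, 9.84, 9.53, 9.53 and 9.55 on naive and at 9.34, 9.23, 9.61, 9.13 and 9.30 on exposed arrays. Exposed array 3 alone reached into the naive range, and naive arrays 1 to 3 stood above naive arrays 4 to 6. The difference of -0.36 ± 0.09 (SE) missed the threshold (limma adjusted p = 0.0748) and passed with number sets blocked (-0.38, adjusted p = 0.00888). Across 15 other settings of the analysis, the blocked fit among them, Runx3 passed in 5. Of 11 fits with 1 array left out it passed in 1, without exposed array 3 (-0.43, adjusted p = 0.0335). Leaving out the 1 overlapping array is no support for a fall. In the other 10 fits the adjusted p was at most 0.191, without exposed array 2. Runx1, the family member of blood stem cells and progenitors, differed by -0.14 (adjusted p = 0.469).

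Among the interferon regulatory factors, Irf2 and Irf4 had negative differences and Irf8 a positive one, and none passed over all 11 arrays. IRF2 restrains interferon responses and is required for CD4-positive splenic dendritic cells in mice. Irf2 was measured at 10.02, 10.04, 10.10, 10.14, 10.20 and 10.25 on naive and at 9.95, 9.89, 9.84, 10.04 and 9.92 on exposed arrays, with only exposed array 4 inside the naive range. Its difference of -0.20 ± 0.05 (SE) did not pass (limma adjusted p = 0.108). Of 15 other settings of the analysis Irf2 passed in 2, and in 0 of 11 fits with 1 array left out. The 2 were with number sets blocked (-0.18, adjusted p = 0.0383) and after arrays were aligned at their 75th percentile (-0.23, adjusted p = 0.0303). That alignment moved calls over all genes toward falls, with 168 higher and 223 lower, against 195 and 121 in the main fit.

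IRF4 supports type 2 cells and their migration. Irf4 was measured at 9.64, 9.96, 9.68, 9.86, 9.89 and 9.88 on naive and at 9.82, 9.19, 9.95, 9.41 and 9.61 on exposed arrays. Exposed arrays 2, 4 and 6 lay below all naive arrays and exposed arrays 1 and 3 inside their range, and the difference of -0.22 ± 0.12 (SE) did not pass (limma adjusted p = 0.491). Of 12 type 2 markers 8 were lower in exposed cells and 2 of them passed, the lectins Cd209a (-1.02, adjusted p = 0.00345) and Clec4a4 (-0.43, adjusted p = 0.0250).

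IRF8 is held at high levels in type 1 and plasmacytoid cells. Irf8 was measured at 11.45, 11.41, 11.48, 11.56, 11.56 and 11.44 on naive and at 11.67, 11.70, 11.46, 11.83 and 11.63 on exposed arrays. All exposed arrays but array 3 lay above the naive ones. The difference was 0.17 ± 0.06 (SE; limma adjusted p = 0.208). A second Irf8 probeset, at a mean of 7.39, gave 0.32 with all 5 exposed arrays above the naive ones (adjusted p = 0.0780 over all probesets).

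BATF proteins are small AP-1 factors that pair with JUN and join IRF4 or IRF8 on composite sites. Batf rose, while Batf3, which type 1 cells depend on, did not differ beyond its spread. Batf (probeset 17277404) was measured at 7.10, 7.18, 7.20, 7.46, 7.38 and 7.47 on naive and at 7.68, 7.70, 7.75, 7.57 and 7.52 on exposed arrays. Every exposed array was above every naive one, and the step was wide among arrays 1 to 3 and narrow among 4 to 6. The rise was 1.27-fold, from 7.30 ± 0.16 (SD, n = 6) to 7.64 ± 0.09 (SD, n = 5), a difference of 0.35 ± 0.08 (SE; limma adjusted p = 0.0465). Arrays 1 to 3 gave 0.55 and arrays 4 to 6 gave 0.11, and the blocked fit gave 0.36 (adjusted p = 0.0270). The call held without naive array 4 or exposed array 6 and was lost without any other single array (at most 0.128, without exposed array 2). It was also lost with the macrophage mean as a covariate (0.33, adjusted p = 0.148), with either replicate number as a block (adjusted p = 0.103 and 0.0875), after median centring (0.0783) or quantile normalisation (0.0515), without the trend (0.0521) and with array weights (0.0576).

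Batf3 was measured at 9.24, 9.29, 9.15, 9.44, 9.21 and 9.23 on naive and at 9.23, 9.57, 9.25, 9.04 and 9.21 on exposed arrays. Exposed array 2 was the highest of all and exposed array 4 the lowest. The difference was 0.004 (95% limits -0.17 to 0.18; limma adjusted p = 0.991). Of 11 type 1 markers 7 were higher and 0 passed the limma test, with 1 at an unadjusted p under 0.05; the chemokine receptor gene Xcr1 differed by -0.01. Batf2, an interferon-induced relative, differed by 0.13 (adjusted p = 0.473).

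ID2 blocks E proteins and keeps conventional cells from the plasmacytoid path that E2-2 opens. Id2 was measured at 12.15, 12.16, 11.98, 12.17, 12.14 and 12.11 on naive and at 12.20, 12.32, 12.12, 12.16 and 12.05 on exposed arrays. Tcf4 was measured at 8.55, 8.58, 8.46, 8.42, 8.58 and 8.61 on naive and at 8.56, 8.49, 8.43, 8.63 and 8.47 on exposed arrays. The groups overlapped widely for both genes, with differences of 0.05 (95% limits -0.06 to 0.16) and -0.02 (95% limits -0.14 to 0.10). Id3 differed by 0.17 (limma adjusted p = 0.556). The mean of 11 plasmacytoid markers outside the list of factors lay between 7.34 and 7.73 on naive and between 7.43 and 7.88 on exposed arrays, and the defining marker Siglech differed by -0.10 (adjusted p = 0.808). Of the full list of 13, which includes Tcf4 and Spib, 9 were higher in exposed cells. Smim5 rose by 0.39 (adjusted p = 0.0304) and Cd300c fell by 0.41 (adjusted p = 0.0338), each on all 5 exposed arrays, while Klk1 (0.80), Ly6d (0.38), Ly6c2 (0.33) and Bst2 (0.21) did not pass. Smim5 averaged 5.61 in naive cells, at the mark for a dim gene, and 6.00 in exposed cells.

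Zbtb46, the zinc finger gene used to mark conventional dendritic cells, was measured at 9.14, 9.09, 9.17, 9.25, 9.25 and 9.29 on naive and at 8.96, 9.02, 9.06, 9.14 and 9.22 on exposed arrays. Exposed arrays 1, 2 and 3 were the lowest of all, and the difference of -0.12 ± 0.06 (SE) did not pass (limma adjusted p = 0.452).

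None of the ETS factors passed over all 11 arrays. SPI1 is PU.1, the master factor of myeloid cells, and it differed by 0.01 (95% limits -0.09 to 0.11). It had the lowest spread within groups of the 37, with a pooled SD of 0.07. Etv6, a repressor needed in blood stem cells, also differed by 0.01 (95% limits -0.11 to 0.13). SPIB, the relative of PU.1 in B and plasmacytoid cells, was measured at 8.27, 8.43, 8.22, 8.76, 8.69 and 8.86 on naive and at 8.34, 8.73, 8.96, 9.26 and 9.23 on exposed arrays. Its level followed the number sets in both groups: arrays 4 to 6 were 0.51 higher than arrays 1 to 3 (adjusted p = 0.0149, with the group as a term). The exposed minus naive difference was 0.37 ± 0.17 (SE; limma adjusted p = 0.389), and 0.42 with number sets blocked (adjusted p = 0.0306). The blocked fit was the 1 setting of 15 in which Spib passed, and it passed in 0 of 11 fits with 1 array left out. With the B cell mean as a covariate the difference was 0.31 (adjusted p = 0.262), and with the macrophage mean 0.64 (adjusted p = 0.0706).

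Ikaros family zinc fingers did not pass. Ikzf1, which opens lymphoid and dendritic development, differed by -0.0001 (95% limits -0.11 to 0.11). Ikzf3, better known from B cells, was measured at 7.02, 6.55, 6.62, 6.76, 6.69 and 6.53 on naive and at 6.89, 6.38, 6.34, 5.87 and 6.44 on exposed arrays. All exposed arrays but array 1 lay below the naive range, and the difference of -0.31 ± 0.14 (SE; limma adjusted p = 0.412) was -0.18 without exposed array 4. Mef2a, the sister gene of Mef2c, differed by -0.01 (95% limits -0.12 to 0.09).

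**Figure D3:**
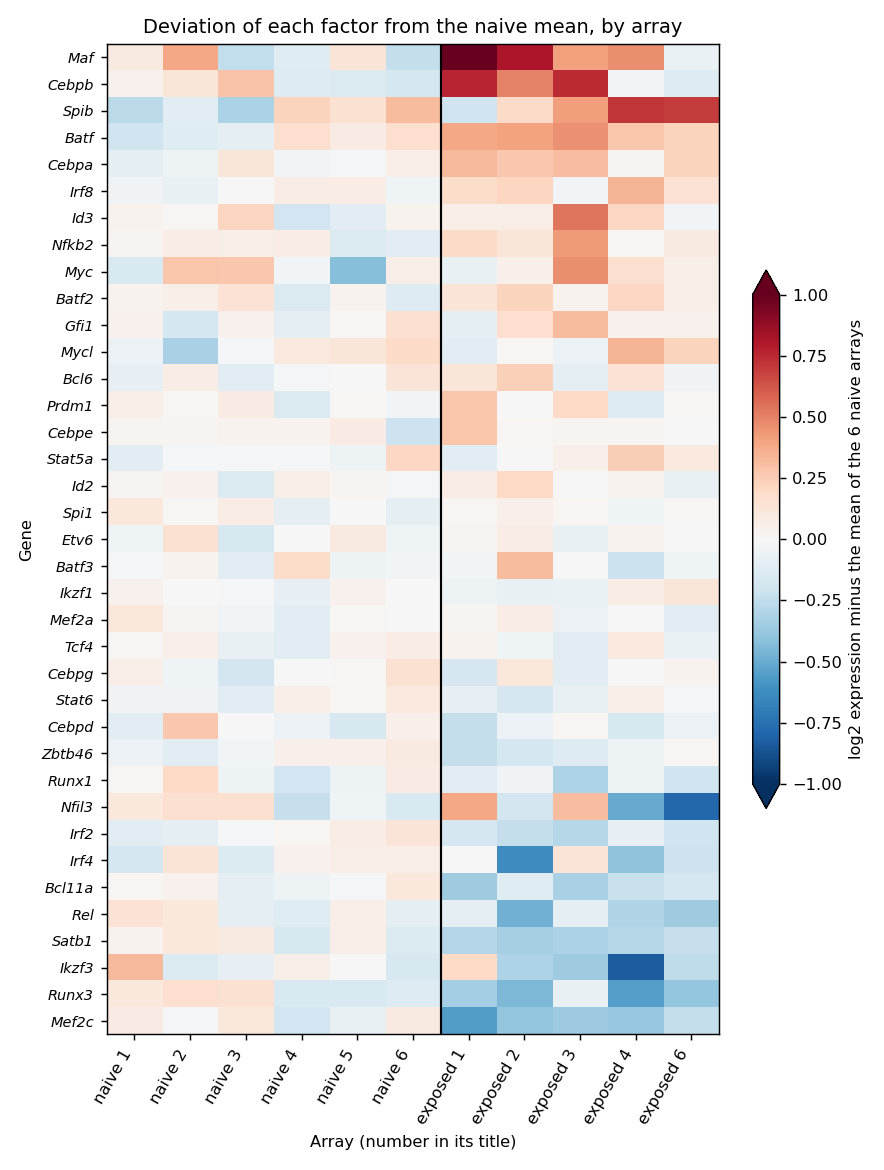
log2 expression of each of the 37 factors (rows) on each of the 11 arrays (columns) minus the mean of the 6 naive arrays, with the colour scale limited to 1 in both directions. Bcl11a, Satb1 and Mef2c are below the naive mean on all 5 exposed arrays, Maf is highest on exposed array 1, and Nfil3 and Cebpb split the exposed arrays by number.

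C/EBP proteins are basic leucine zipper factors of granulocytes, monocytes and the inflammatory response. Cebpb was measured at 6.99, 7.08, 7.24, 6.82, 6.81 and 6.77 on naive and at 7.71, 7.45, 7.70, 6.93 and 6.82 on exposed arrays. Exposed arrays 1 to 3 lay above every naive array and exposed arrays 4 and 6 among them, and naive arrays 4 to 6 were below naive arrays 1 to 3. The difference was 0.37 ± 0.16 (SE; 95% limits 0.02 to 0.72; limma adjusted p = 0.366). Arrays 1 to 3 gave 0.52 and arrays 4 to 6 gave 0.07 (interaction unadjusted p = 0.00648, limma adjusted p = 0.992), and 0.16 with the macrophage mean as a covariate. The study's description speaks of a drop of C/EBPβ after lymphoma exposure. The RNA difference here had the opposite sign but did not pass, and protein was not measured on these arrays.

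Cebpa, which myeloid progenitors require, was measured at 7.49, 7.53, 7.70, 7.55, 7.56 and 7.64 on naive and at 7.90, 7.85, 7.89, 7.61 and 7.80 on exposed arrays. Only exposed array 4 fell inside the naive range. The difference of 0.23 ± 0.06 (SE) did not pass (limma adjusted p = 0.107), and Cebpa passed in 0 of the 15 other settings. When arrays were dropped singly, 1 of the 11 limma fits passed, the one lacking exposed array 4 (0.28, adjusted p = 0.0418). Since that array was the overlapping one, its removal is no support for a rise. Dropping exposed array 2 instead raised the adjusted p to 0.245. The acute phase member Cebpd differed by -0.10, the granule gene regulator Cebpe by 0.07 and Cebpg, which pairs with other family members, by -0.02, none past the threshold. Nfil3, a related leucine zipper repressor that opens the path to type 1 cells, was measured at 8.37, 8.42, 8.43, 8.03, 8.22 and 8.11 on naive and at 8.65, 8.08, 8.57, 7.76 and 7.48 on exposed arrays. Exposed arrays 1 and 3 were the highest of all arrays and exposed arrays 4 and 6 the lowest, with differences of 0.03 in arrays 1 to 3 and -0.50 in arrays 4 to 6 (interaction unadjusted p = 0.0199, limma adjusted p = 0.992).

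Maf had the largest difference and the largest spread. MAF is a leucine zipper factor of macrophages and of interleukin 10 production. Maf was measured at 6.68, 6.98, 6.34, 6.47, 6.72 and 6.35 on naive and at 8.46, 7.40, 7.0, 7.06 and 6.52 on exposed arrays. Exposed array 1 stood far above the rest, exposed arrays 2, 3 and 4 just above the naive range, and exposed array 6 inside it. The difference was 0.70 ± 0.26 (SE; 95% limits 0.14 to 1.26; limma adjusted p = 0.268). A second probeset, with a mean of 5.41 under the mark for a dim gene, gave 0.77 (adjusted p = 0.243 over all probesets). Without exposed array 1 the difference of the first probeset was 0.40 (adjusted p = 0.317). That array also had the highest macrophage mean, and with this mean as a covariate the Maf difference was 0.09 (adjusted p = 0.814). The defining macrophage genes Adgre1 and Vcam1 differed by -0.18 and 0.60 (adjusted p = 0.730 and 0.400), and Marco rose by 1.54 (adjusted p = 0.00721). In sorted bulk RNA, more cells of a type and more RNA per cell cannot be told apart.

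**Figure D4:**
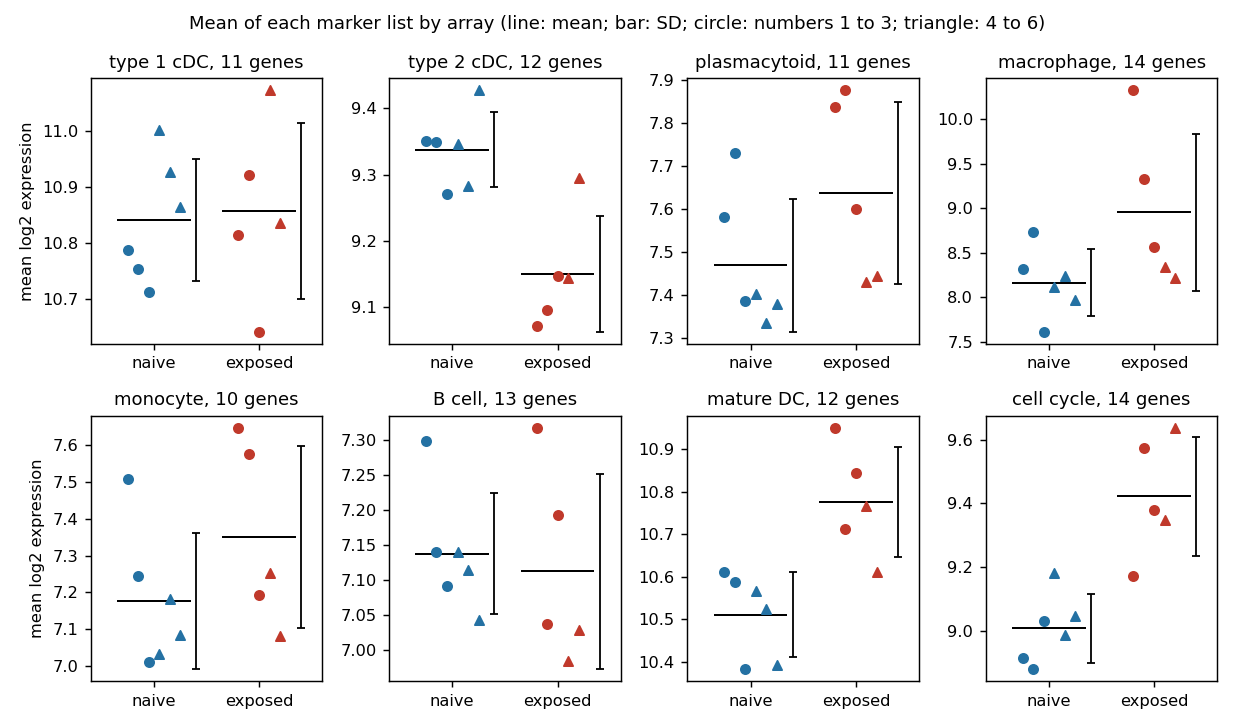
Mean log2 expression of 8 lists of marker genes on each array, naive (blue) and exposed (red), with group means (lines) and SDs (bars). The macrophage mean reaches 10.32 on exposed array 1, the type 1 and B cell means overlap between the groups, and the type 2 mean is lower on 4 of the exposed arrays than on any naive one.

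The NF-κB members pointed in opposite directions. REL, the c-Rel subunit that drives interleukin 12 genes, was measured through Rel at 12.48, 12.44, 12.24, 12.22, 12.41 and 12.24 on naive and at 12.25, 11.86, 12.25, 12.04 and 11.98 on exposed arrays. Exposed arrays 2, 4 and 6 lay below the naive range and arrays 1 and 3 at its lower end, and the difference was -0.26 ± 0.08 (SE; limma adjusted p = 0.133), -0.27 in arrays 1 to 3 and -0.28 in arrays 4 to 6. Of 15 other settings of the analysis Rel passed in 1, with the B cell mean as a covariate (-0.24, adjusted p = 0.0483). It passed in 0 of 11 fits with 1 array left out. Nfkb2, the p100 precursor of the non-canonical pathway, was measured at 10.28, 10.33, 10.32, 10.33, 10.12 and 10.15 on naive and at 10.44, 10.38, 10.68, 10.27 and 10.34 on exposed arrays. All exposed arrays but array 4 lay above the naive range, and the difference was 0.17 ± 0.07 (SE; adjusted p = 0.350).

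The other factors differed by at most 0.13 in size and did not pass. They were the cytokine signal carriers Stat5a (0.06) and Stat6 (-0.05), the repressors Bcl6 (0.07), Prdm1 (0.07) and Gfi1 (0.10), and the Myc family members Myc (0.13) and Mycl (0.08), of which MYCL is the one that dendritic cells use in place of MYC. Myc is the transgene of the lymphoma. It was measured at 8.76, 9.19, 9.19, 8.89, 8.49 and 8.98 on naive and at 8.84, 8.97, 9.38, 9.08 and 8.98 on exposed arrays, with 4 of 5 exposed values inside the naive range. Mycl followed the number sets, at 0.30 higher in arrays 4 to 6 (adjusted p = 0.0235, with the group as a term).

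Levels of 4 factors also differed between the number sets. With the group as a term, Spib, Mycl, Cebpb and Nfil3 differed between arrays 4 to 6 and 1 to 3, against 3.30% of all genes: Spib and Mycl were higher in 4 to 6, and Cebpb and Nfil3 lower (-0.50 and -0.52). This split was first seen in these same arrays, so the counts describe it and do not test it. The exposed minus naive difference had opposite signs in the number sets for 9 factors of 37, against 41.5% of all genes. Among the 12335 genes with a mean at or above the lowest of the factors, 4439 had opposite signs. The difference was larger in size in arrays 1 to 3 for 21 of 37, and for 12475 of all 22180 genes. The interaction of group and number set passed for 0 of 37 factors in limma, and for 0% of all genes. At an unadjusted p under 0.05 it picked out Batf, Cebpb, Nfil3 and Ikzf1, 4 factors, where 4.25% of all genes did so. The lowest was that of Batf (limma unadjusted p = 0.000604, adjusted p = 0.992). Among exposed arrays the macrophage mean was also highest on arrays 1 to 3 (10.32, 9.33 and 8.56, against 8.34 and 8.22), and its part in these differences was not tested.

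**Figure D5:**
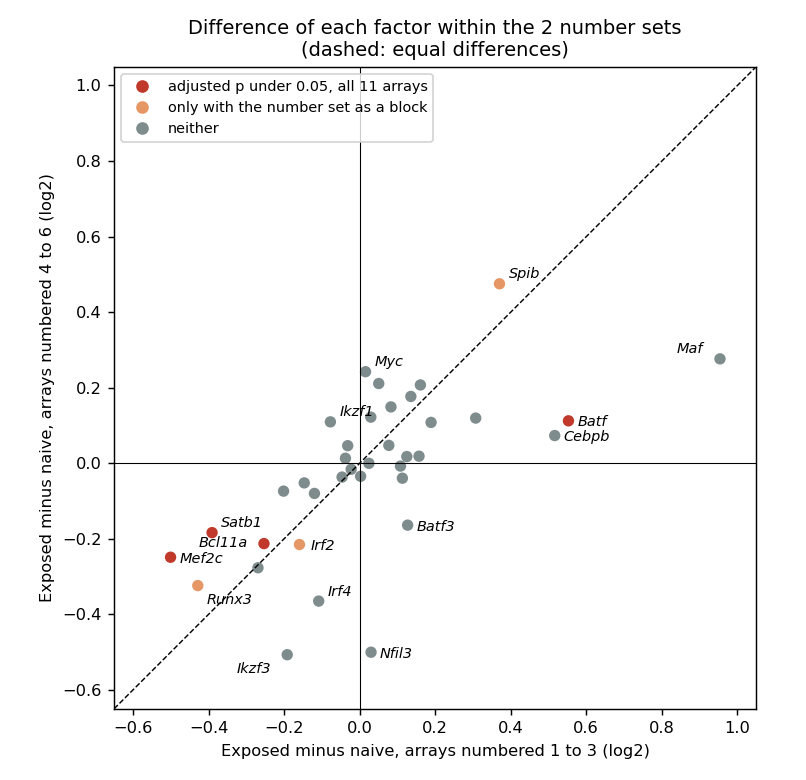
Exposed minus naive difference of each factor in arrays numbered 1 to 3 (horizontal, log2) and in arrays numbered 4 to 6 (vertical, log2); the dashed line marks equal differences. Bcl11a and Rel lie near the line, while Batf (0.55 and 0.11), Cebpb (0.52 and 0.07) and Nfil3 (0.03 and -0.50) lie away from it.

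A second list held other transcription factors of myeloid and dendritic cells, of which 58 were measured. Of these 3 rose and 2 fell (limma, adjusted p under 0.05 over all genes), where 0.879% of all genes rose and 0.546% fell. Their median difference was 0.03. The oxysterol receptor gene Nr1h3 rose by 1.09 ± 0.15 (SE; adjusted p = 0.00409) and the quiescence factor Klf2 by 0.66 ± 0.14 (adjusted p = 0.0310). Arrays 1 to 3 and 4 to 6 gave 1.32 and 0.76 for Nr1h3, and 0.89 and 0.32 for Klf2 (interaction unadjusted p = 0.0387 and 0.00641, limma adjusted p = 0.992 for both). Relb, partner of the Nfkb2 product, rose by 0.25 ± 0.05 (adjusted p = 0.0194), and evenly, at 0.26 in arrays 1 to 3 and 0.23 in arrays 4 to 6. The interleukin 12 signal carrier Stat4 fell by 0.64 ± 0.12 (adjusted p = 0.0239). Its differences were -0.95 in arrays 1 to 3 and -0.27 in arrays 4 to 6 (interaction unadjusted p = 0.00175, limma adjusted p = 0.992). The aryl hydrocarbon receptor gene Ahr fell by 0.45 ± 0.10 (adjusted p = 0.0495), -0.36 and -0.60 in the same order. With number sets blocked all 5 passed.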

How the data were processed

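The deposited values are log2 expression, with RMA named as the authors' method per the submitters' processing notes (a method that corrects background, normalises between arrays and summarises probes). The RMA version and the annotation build are not given in the sources used here. Biotin-labelled material was read on 1-colour Affymetrix arrays. Of 41801 probesets 34472 have values; the given probe table names 1 gene for 23521 of them. Symbols were updated by gene ID through a RefSeq table (GRCm38.p6), and the probeset with the highest mean was kept per gene, which left 22180 genes and no filter on dim ones. Differences were computed with limma 3.58.1 in R 4.3.3 (lmFit, eBayes with trend), with Benjamini-Hochberg adjustment across the genes. Each SE comes from limma's moderated variance. For arrays, their number limits the precision.

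The factors and the lists were chosen with earlier results of these data known. Named genes follow a rule: all factors, with every array's value for those that passed, those with separate groups, and the factors that define cell types; from the second list, those that passed; Rel, Nfkb2, Ikzf3, Nfil3, Maf and Myc got array values after these were seen. Marker lists for the T cell, NK cell and mature and dividing cell programmes were measured too. The mean of 8 T cell genes lay between 5.58 and 5.72 on naive and 5.56 and 5.74 on exposed arrays, and that of 8 NK genes between 5.93 and 6.07 and between 6.00 and 6.29. In naive and exposed cells, monocyte genes (10) averaged 7.18 and 7.35, and neutrophil genes (10) 5.23 and 5.30. Mature dendritic cell genes (12, of which 5 rose) averaged 10.51 and 10.78, and cell cycle genes (14, of which 7 rose) 9.01 and 9.42. In the monocyte list 1 gene passed, Cx3cr1 (0.46, limma adjusted p = 0.00866). In the NK list 1 gene passed, Ncr1 (0.46, limma adjusted p = 0.0289). Over all 11 arrays 0 T cell and 0 neutrophil genes passed.

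Tested on simulated data of 22180 genes in this design, limma recovered 100% of 100 genes given a log2 change of 1 and 87% of 100 given 0.5, with 11 false calls of 198. The simulated noise was independent between genes and held no number set split. The called factors differed by less, 0.24 to 0.39 in size, and recovery at that size was not simulated. Alternatives were other moderation, array weights, rescaling, a filter on dim genes, probeset means, blocks, number sets, marker means as covariates and each array left out; the fit of every probeset by itself was chosen after seeing the data. Same-numbered arrays were not taken as pairs, since not every pair's correlation was over 0.1: the title calls the last exposed array 6 where its replicate field says 5, and correlations after removing group means lay between 0.0880 and 0.231.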

Additional observations from a re-analysis of the deposited data

Results flagged for a closer look

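With 37 factors in each of 2 groups, 74 sets of arrays were searched for a single array far from the rest of its group, and 4 were found, where chance gives about 1 in 20. Cebpe was measured at 5.91 on exposed array 1, against 5.64 to 5.66 on the other exposed arrays, and at 5.42 on naive array 6, against 5.66 to 5.71. Id2 was measured at 11.98 on naive array 3, against 12.11 to 12.17. Stat5a was measured at 8.68 on naive array 6, against 8.36 to 8.46. None of these 3 genes passed the test in any fit.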

How the results depend on the processing

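Of the called factors, Mef2c passed in 11 of 15 settings other than leaving out an array, Satb1 in 10, Bcl11a in 8 and Batf in 6. The number of arrays, 11, limits the precision. The 1 factor called higher became 0 without the trend, with array weights, after median centring or quantile normalisation, with either replicate block, in either number set alone and with the macrophage mean as a covariate, and 2 with the number sets blocked. The 3 called lower became 2 without the trend, 1 with the characteristic replicate block, 0 in either number set alone or with the macrophage covariate, and 5 with the number sets blocked. The title replicate block gave 0 higher and 3 lower; only 2 of 5 exposed arrays correlated best with their own number. Leaving out 1 array gave 0 to 1 higher and 0 to 3 lower, and 104 (without exposed array 2) to 395 (without exposed array 6) genes over the whole table, against 316 with all arrays. That total was 459 with the filter on dim genes, 182 with the characteristic replicate block, 617 with the number sets blocked, 11 and 5 in arrays 1 to 3 and 4 to 6 alone, 477 with the B cell covariate and 185 with the macrophage covariate. The 75th percentile shift gave 168 higher and 223 lower, against 195 and 121. The interaction stayed at 0 in every setting run.

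The 4 called factors kept their direction in every setting run, and 11 factors that did not pass, Nfil3 (-0.15) the largest in size, turned sign somewhere. Array weights gave Batf3 -0.0091 and Ikzf1 0.0061. Median centring gave Batf3 -0.013, Spi1 -0.0048 and Etv6 -0.0060, quantile normalisation Batf3 -0.0025 and Mef2a 0.00034, and the 75th percentile shift Batf3 -0.034, Spi1 -0.026 and Etv6 -0.027. The title replicate block gave Batf3 -0.0064 and Ikzf1 0.0085, the characteristic replicate block Batf3 -0.0021, Spi1 -0.0057, Ikzf1 0.00055 and Cebpg 0.0070, and blocking on the number set Batf3 -0.0022 and Ikzf1 0.0057. Arrays 1 to 3 alone gave Spi1 -0.032, Nfil3 0.030 and Cebpg 0.0026. Arrays 4 to 6 alone gave Batf3 -0.16, Id2 -0.040, Tcf4 0.013, Ikzf1 0.11, Etv6 -0.00018 and Prdm1 -0.0075. The macrophage covariate gave Batf3 -0.062, Id2 -0.018, Spi1 -0.0014, Ikzf1 0.039, Cebpe -0.012, Cebpg 0.00052, Etv6 -0.042 and Prdm1 -0.0014. With 1 array left out, the range was Batf3 from -0.074 to 0.059, Tcf4 from -0.046 to 0.0042, Spi1 from -0.0067 to 0.033, Nfil3 from -0.29 to 0.0048, Ikzf1 from -0.031 to 0.019, Mef2a from -0.035 to 0.0095, Cebpg from -0.060 to 0.013 and Etv6 from -0.021 to 0.042. The cause of these changes was not tested.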
